A study of Saccharomyces cerevisiae with 4 samples.

Results

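The genes described here build the amino acids arginine, lysine, histidine, isoleucine, valine, leucine, tryptophan, tyrosine and phenylalanine in Saccharomyces cerevisiae. They were chosen by name: an open reading frame (ORF) is a member when its RefSeq symbol starts with ARG, LYS, HIS, ILV, LEU, TRP or ARO followed by a digit. Of the 6260 ORFs in the deposited table, 52 are members. By their known roles 42 are enzymes of synthesis, 6 are regulators, 2 are enzymes of aromatic amino acid breakdown (ARO9 and ARO10) and 1 is a mitochondrial carrier gene (LEU5), and no role is stated for ARO5. The name rule therefore takes in more than synthesis. Counts and medians below hold all measured members unless a role is named.

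Yeast makes these amino acids by separate chains of enzymes, many of which are encoded by genes that the general activator Gcn4 switches on when amino acids run short. Single pathways also have their own regulators: the Arg80, Arg81 and Mcm1 complex for arginine, Lys14 for lysine, Leu3 for the branched-chain pathway and Aro80 for the breakdown of aromatic amino acids. The factors deleted in this study serve another branch, the uptake and reduction of sulfate and the synthesis of methionine and cysteine. Setting both branches side by side asks how far a deletion in the sulfur system was accompanied by different RNA levels of the other amino acid genes.

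RNA from bulk cultures of 4 deletion strains was measured on 2-colour arrays, with 1 deposited column per strain. The met28 strain lacks MET28, a cofactor gene of the Met4 activator complex, and the cbf1 strain lacks CBF1, the gene of a DNA-binding factor that recruits Met4. Their reference channel is labelled wild type with methionine (wt+met). The met31 and met32 strains lack MET31 and MET32, paralogous zinc-finger genes, and their reference is labelled wild type (wt) only. All strains came from colonies on YPD plates with G418 and grew in YNB medium at 30 °C to an OD600 of 0.8 to 1.0, per the labels, which name neither the parent strain nor the amino acids in the medium. The growth protocol speaks of 2 or more biological samples for a strain, but how they were combined is not given, so every value below has n = 1 and no replicate check. In bulk cultures a change in the mix of cells and a change within each cell cannot be told apart.

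Each value is a signed log ratio as deposited, with a base that the sources do not state. MET28 had the lowest value of its own array, at -1.294, CBF1 the fourth lowest of its array, at -0.995, and MET31 the fifth lowest of its array, at -0.32. Values above 0 on these 3 arrays therefore likely mean more RNA in the deletion strain than in the reference. On the array labelled met32, the MET32 gene had a value of 0.012, so that array shows no sign of the deletion and its direction is not settled. An exact 0 was treated as not measured. Measured ORFs numbered 5242 for met28, 5893 for met31, 5882 for met32 and 5383 for cbf1, with robust SDs (1 SD estimated from the median distance to the median) of 0.0778, 0.0519, 0.0608 and 0.11. The array medians were 0.0015, -0.002, -0.002 and -0.034, so a value near 0 on the cbf1 array lies above most ORFs.

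In the outermost 2.5% per side, amino acid genes were few on met28, met31 and met32, and near the share of all ORFs on cbf1. The middle 50% of all measured ORFs held 34 of 49 measured members on met28 (69.4%), 30 of 50 on met31 (60%), 28 of 48 on cbf1 (58.3%) and 22 of 50 on met32 (44%), so the members were more central than ORFs in general on 3 arrays and less central on met32. Of the 52 members, 49 were measured on met28, 50 on met31, 50 on met32 and 48 on cbf1, and 46 were measured on all 4 arrays. A member is said to lie in a tail when it belongs to the highest or lowest 2.5% of the measured ORFs of an array. On the met28 array 1 of 49 members lay in a tail, against 5.06% of all ORFs. On the met31 array 0 of 50 did, against 5.06%, and on the met32 array 0 of 50, against 5.1%. On the cbf1 array 3 of 48 did, against 5.02%. Side by side, the high tail held 1 member on met28, 0 on met31, 0 on met32 and 2 on cbf1, against 2.52%, 2.51%, 2.58% and 2.51% of all ORFs, and the low tail 0, 0, 0 and 1, against 2.54%, 2.55%, 2.52% and 2.51%. Over the 4 arrays 4 of 197 member values (2.03%) were in a tail, against 5.06% of all values.

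Those 4 values belonged to ARG81 (high on met28), ARG82 and ARO3 (high on cbf1) and ARO80 (low on cbf1). The member nearest to the bound from outside was ARG2 on met28, at 0.265 with the bound at 0.268. On the cbf1 array the lowest member outside the tail was LEU1 at -0.175 and the highest was ARG56 at 0.183, with bounds at -0.2914 and 0.2074. A wider window, the highest or lowest 10% of ORFs, held 4 of 49 members on met28 (8.16%, against 20.1% of all ORFs), 9 of 50 on met31 (18%, against 20.3%), 10 of 50 on met32 (20%, against 20.2%) and 7 of 48 on cbf1 (14.6%, against 20.2%).

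The members' medians were -0.004 on met28, 0.009 on met31, 0.0095 on met32 and -0.034 on cbf1. On the cbf1 array this equals the median of all ORFs to the printed digits, and on the other arrays the distance was at most 0.0115. Above 0 lay 21 of 49 members on met28 (50.7% of all ORFs), 27 of 50 on met31 (48.3%), 27 of 50 on met32 (48.8%) and 17 of 48 on cbf1 (37.1%). After each array was centred on its median, 24 of 48 members were above 0 on cbf1. The members' robust SDs, 0.0519, 0.0371, 0.0638 and 0.0919 in the same order, were smaller than those of all ORFs on met28, met31 and cbf1 and slightly larger on met32. With 1 column per strain none of these differences could be tested.

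**Figure D1:**
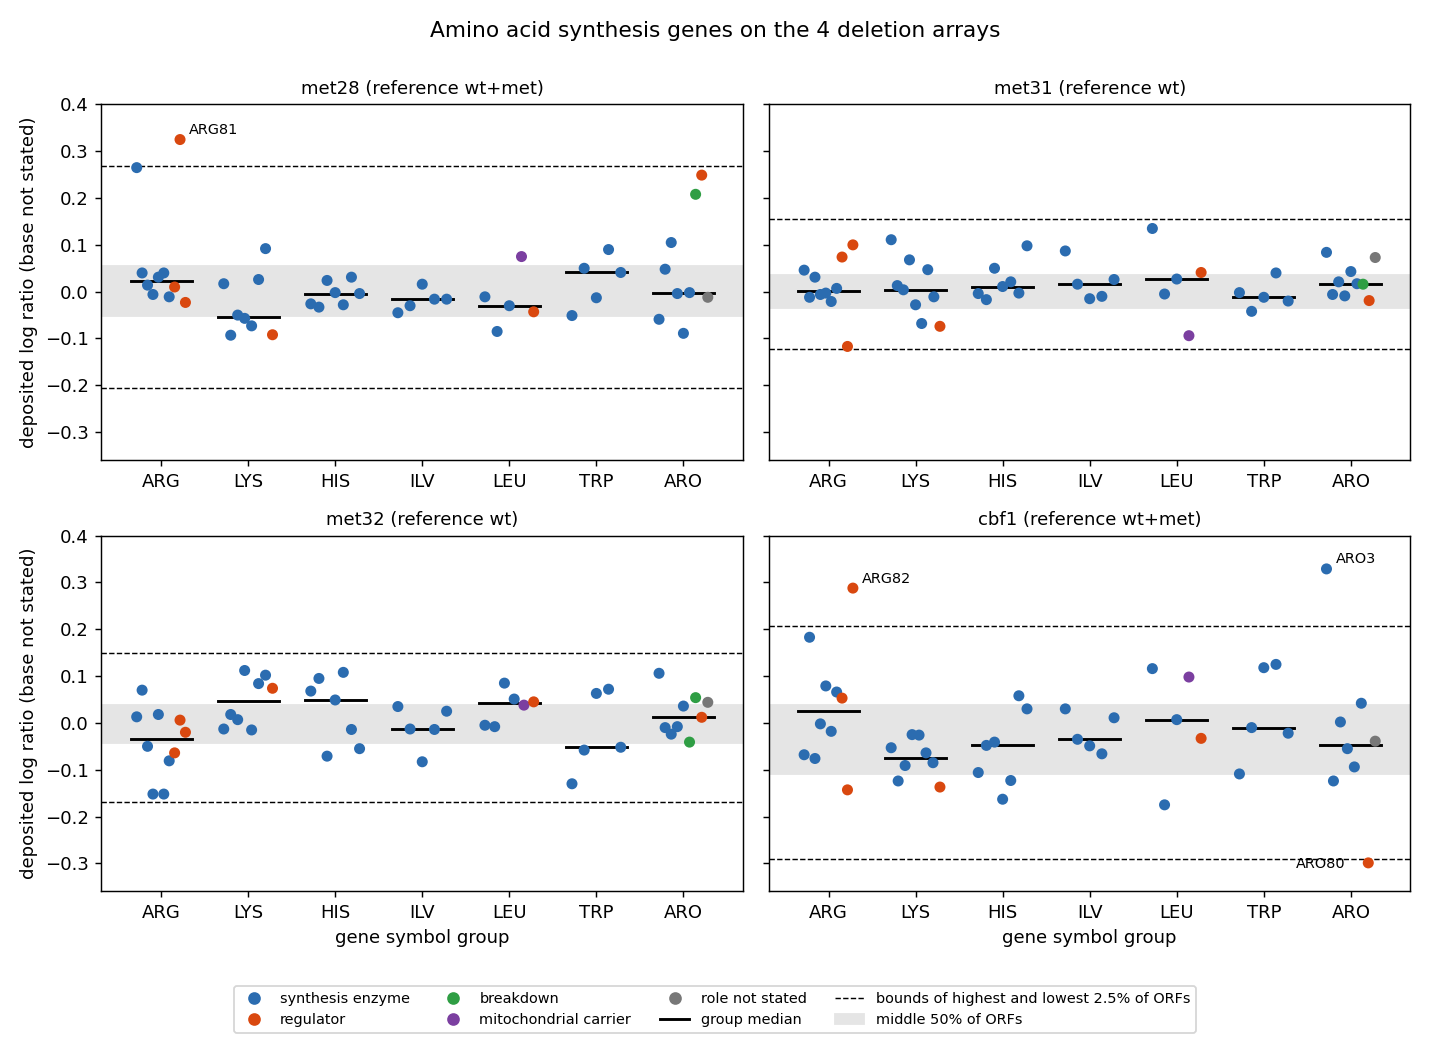
Deposited log ratio (vertical axis, base not stated) of each measured member by symbol group (horizontal axis) on each array. Points are genes coloured by role, black bars are group medians, the grey band holds the middle 50% of all measured ORFs and dashed lines bound the highest and lowest 2.5%. ARG81 on met28 and ARG82, ARO3 and ARO80 on cbf1 are the 4 points beyond the dashed lines.

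The met28 and cbf1 arrays held large values for sulfate genes, which gives a scale for the members on these arrays. Of 10 genes of sulfate uptake and assimilation, 9 were measured on met28 with a median of -0.362, and 10 on cbf1 with a median of -0.5145. In each case 7 were in the lowest 2.5%, and SUL1, a sulfate permease gene, was at -0.745 on met28 and -1.119 on cbf1. MET3 (0.041) and MET14 (0.193) were above 0 on cbf1. The lowest amino acid member was LYS21 on met28, at -0.093, and ARO80 on cbf1, at -0.299. On met31 the sulfate median was -0.027 and on met32 it was 0.025, so the list gives no such scale there. The lists were set side by side without a test.

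By role, the regulators lay farther from the array median than the enzymes on met28, met31 and cbf1 and nearer to it on met32. Of 6 regulators 3 were in a tail of at least 1 array (ARG81, ARG82 and ARO80), and of 42 enzymes 1 was (ARO3). Of all 6255 ORFs measured on at least 1 array, 15.8% were in a tail of at least 1, and of the 52 members 7.69%. The median distance of the regulators from the array median was 0.069 on met28, 0.074 on met31, 0.0325 on met32 and 0.106 on cbf1. For the enzymes it was 0.0315, 0.019, 0.052 and 0.054, and for all ORFs 0.0525, 0.035, 0.041 and 0.074. These distances are a description of 6 genes, with roles assigned from general knowledge.

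Among arginine genes the farthest values belonged to ARG81, ARG82 and ARG2, and most other enzymes lay near 0 on met28 and met31. The group's median distance from the array median was 0.055 on met32 and 0.0935 on cbf1. For all ORFs it was 0.041 and 0.074. The pathway runs from acetylglutamate through ornithine and citrulline to arginine. ARG2 encodes the synthase that makes acetylglutamate and was at 0.265 on met28, 0.046 on met31, 0.013 on met32 and -0.068 on cbf1. It was the highest of all synthesis enzymes on met28, at percentile 97.4 of the measured ORFs, and below 0 on cbf1. ARG56 encodes the precursor of the next pair of enzymes, acetylglutamate kinase and reductase, and was at 0.04, -0.012, 0.07 and 0.183 in the same order of arrays. Its cbf1 value was at percentile 96.3.

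Later arginine enzymes were close to 0 on met28 and met31. ARG8 (acetylornithine aminotransferase), ARG7 (ornithine acetyltransferase), ARG3 (ornithine carbamoyltransferase), ARG1 (argininosuccinate synthetase) and ARG4 (argininosuccinate lyase) lay between -0.011 and 0.04 on met28 and between -0.021 and 0.031 on met31. On met32 ARG1 and ARG7 were both at -0.152, the lowest members of that array as deposited, at percentile 3.34 and outside its lowest 2.5%. With the met32 sign turned they would be the highest members, at 0.152. On cbf1 the 5 genes ranged from -0.076 (ARG8) to 0.079 (ARG3).

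ARG81, which encodes the zinc-cluster subunit that senses arginine, was at 0.325 on met28, -0.117 on met31, 0.006 on met32 and -0.143 on cbf1. It was the highest member on met28 and the lowest member on met31, where it lay just outside the tail (bound -0.122). Read as a log10 ratio, 0.325 is a 2.11-fold difference, and read as log2 a 1.25-fold difference. ARG82 encodes an inositol polyphosphate multikinase that the arginine complex needs, and was at -0.023, 0.1, -0.02 and 0.288 in the same order. Its cbf1 value was at percentile 99.1 and would be 1.94-fold as log10 or 1.22-fold as log2. ARG80, which encodes the MADS-box subunit, stayed between -0.064 and 0.074, and MCM1, its partner, between -0.047 and 0.033. On these arrays, with n = 1 each, the subunit genes ARG80, ARG81 and MCM1 showed no shared pattern. ARG81 and ARG82 had opposite signs on all 4 arrays, with both within 0.02 of 0 on met32. The ARG82 value on met28 (-0.023) was also within 1 robust SD (0.0778) of 0. ARG80 and ARG82 had the same sign on met31, met32 and cbf1 and opposite signs on met28.

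**Figure D2:**
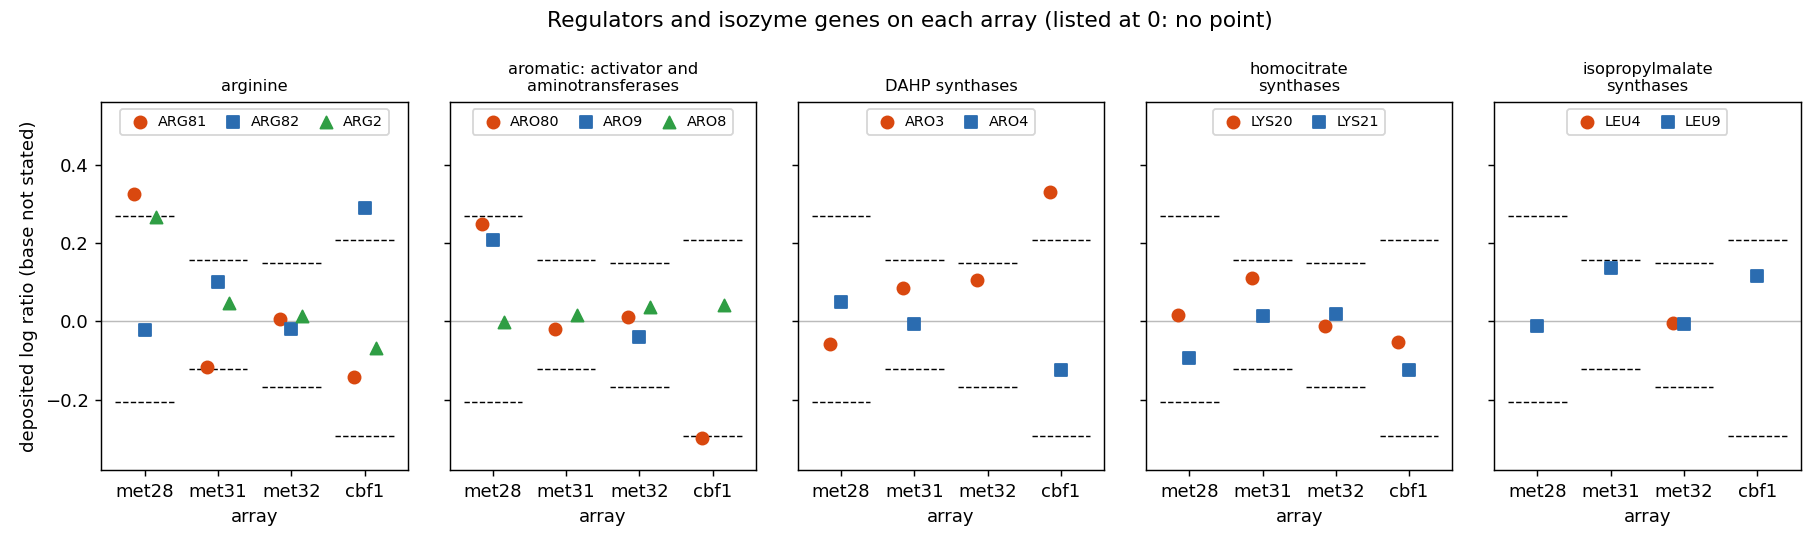
Deposited log ratio (vertical axis, base not stated) of arginine and aromatic regulators, ARG2 and 4 isozyme pairs on each array (horizontal axis), 1 point per gene and array. Dashed lines bound the highest and lowest 2.5% of ORFs of that array, and genes listed at 0 have no point. ARO80 is at 0.249 on met28 and -0.299 on cbf1, and ARO3 and ARO4 are 0.453 apart on cbf1.

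Lysine genes had medians below the array median on met28 and cbf1, as did the HIS, ILV and ARO groups. Yeast makes lysine from homocitrate through alpha-aminoadipate and saccharopine. On cbf1 all 8 measured genes were below 0, with a median of -0.0745 and a range from -0.137 (LYS14) to -0.025 (LYS12). Since the whole array lay low, 6 of the 8 were below its median of -0.034, and 35.6% of all ORFs were lower than the lysine median. On met28 the median was -0.0535, 5 of 8 were below 0 (50.7% of all ORFs were above 0), and 23.8% of all ORFs were lower than that median. On met32 the median was 0.046, with 6 of 8 above 0, and with the sign turned it would be -0.046. No lysine gene was in a tail of any of the 4 arrays.

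LYS14, which encodes the activator of the pathway, was at -0.092 on met28, -0.074 on met31, 0.074 on met32 and -0.137 on cbf1, the lowest lysine value on met31 and cbf1. LYS20 and LYS21, which encode homocitrate synthase isozymes for the first step, were at 0.017 and -0.093 on met28, 0.111 and 0.013 on met31, -0.013 and 0.018 on met32 and -0.053 and -0.124 on cbf1. LYS20 was the higher of the pair on met28, met31 and cbf1, by 0.071 to 0.11, or 0.647 to 1.89 robust SDs of the array. Probes for such similar genes cannot be assumed to tell them apart.

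The middle and late lysine genes differed among arrays without a common direction. LYS12 (homoisocitrate dehydrogenase) was at -0.057, 0.068, 0.112 and -0.025, the highest member on met32 as deposited and the lowest, at -0.112, with the sign turned. LYS1 (the last saccharopine dehydrogenase step) was at 0.092, -0.011, 0.102 and -0.085, the highest lysine gene on met28. LYS4 (homoaconitase) ranged over -0.091 to 0.007 and LYS9 (the step before LYS1) over -0.064 to 0.084. LYS2 (alpha-aminoadipate reductase) was at -0.073, -0.028 and -0.026 on met28, met31 and cbf1 and listed at 0 on met32. LYS5, whose product activates Lys2, was listed at 0 on met28 and cbf1 and at -0.068 on met31 and -0.015 on met32. Neither gene reached a tail where it was measured.

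Histidine genes lay close to 0 on the met28 array. Their 7 values there lay between -0.033 (HIS4) and 0.031 (HIS5), a span of 0.064. On met31 they lay between -0.017 (HIS4) and 0.098 (HIS2), on met32 between -0.071 (HIS6) and 0.108 (HIS3), and on cbf1 between -0.163 (HIS7) and 0.058 (HIS5). The medians were -0.004, 0.011, 0.049 and -0.048 in that order. HIS4, which encodes a protein of several catalytic steps and is a classic Gcn4 target, was at -0.033, -0.017, 0.095 and -0.048, and HIS7, the imidazole glycerol phosphate synthase gene, at -0.002, 0.011, 0.049 and -0.163. HIS1, the gene of the first enzyme, was at -0.026, -0.004, 0.068 and -0.106. HIS3, a dehydratase gene and a common selection marker, was at -0.028, 0.021, 0.108 and -0.123. The parent strain was not named, so whether the marker genes HIS3, LEU2, TRP1 and LYS2 were intact in it is not known. Against the array median, which was -0.034 on cbf1, 5 of the 7 genes were below it on met28 and 5 on cbf1. None of the 7 genes was in a tail.

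The branched-chain enzymes ILV1, ILV2, ILV3, ILV5 and ILV6, shared by isoleucine and valine synthesis apart from the first, were the flattest group on met28 and cbf1. Their spans were 0.061 on met28, 0.102 on met31, 0.118 on met32 and 0.096 on cbf1. ILV1, the threonine deaminase gene of the first isoleucine step, was the lowest of them on met28 at -0.045 and the highest on met31 at 0.087, on met32 at 0.035 and on cbf1 at 0.03. With the met32 sign turned it would be the lowest there, at -0.035. ILV6 and ILV2 encode the regulatory and catalytic subunits of acetolactate synthase. ILV6 was at 0.016, -0.015, -0.083 and -0.049 and ILV2 at -0.03, 0.016, -0.013 and -0.035. ILV5, the reductoisomerase gene, was between -0.066 and -0.01 on the 4 arrays, and ILV3, the dehydratase gene, between -0.016 and 0.026.

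Leucine genes spread further than the ILV genes on met28, met31 and cbf1 and less on met32. LEU1, the isopropylmalate isomerase gene, was at -0.085 on met28, -0.005 on met31, 0.085 on met32 and -0.175 on cbf1. It was the lowest leucine gene on met28 and cbf1. On met32 it was the highest as deposited and would be the lowest, at -0.085, with the sign turned. LEU9, the gene of the minor isopropylmalate synthase, was at -0.011, 0.135, -0.008 and 0.116, the highest of all members on met31. LEU4, the gene of the major synthase, was listed at 0 on met28, met31 and cbf1 and at -0.005 on met32, so the pair could be compared only on met32, where the difference was 0.003.

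The other leucine genes stayed inside the tails' bounds. LEU2, the dehydrogenase gene and a common marker, was at -0.03, 0.027, 0.051 and 0.007. LEU3, the activator of this branch, ranged from -0.043 to 0.045. LEU5, which encodes a mitochondrial carrier needed for coenzyme A in the matrix and not a step of leucine synthesis, was at 0.075, -0.094, 0.038 and 0.098. It was the highest leucine-named gene on met28 and the lowest on met31.

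In the tryptophan branch, TRP3 was the highest of the 5 genes on all 4 arrays as deposited. TRP3 encodes indole-glycerol-phosphate synthase joined to the glutaminase part of anthranilate synthase, and was at 0.09 on met28, 0.04 on met31, 0.072 on met32 and 0.125 on cbf1. TRP2, whose product forms anthranilate synthase together with that of TRP3, was at -0.051, -0.002, -0.13 and -0.109, the lowest of the 5 on met28, met32 and cbf1. With the met32 sign turned, TRP2 would be the highest and TRP3 the lowest there. The genes of this 2-protein enzyme thus lay at opposite ends of their group on 3 arrays.

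TRP1, the isomerase gene and another common marker, was at -0.013, -0.012, 0.063 and 0.118. TRP4 and TRP5, the phosphoribosyl transferase and tryptophan synthase genes, lay between -0.058 and 0.05 and between -0.052 and 0.041. None of the 5 genes was in a tail, and the group's medians were 0.041, -0.012, -0.052 and -0.01.

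The aromatic group held the widest contrast, that between ARO3 and ARO80 on the cbf1 array. ARO3 and ARO4 encode isozymes of the first step (DAHP synthase), inhibited by phenylalanine and by tyrosine. ARO3 was at -0.059 on met28, 0.084 on met31, 0.106 on met32 and 0.329 on cbf1, the highest of all members there and at rank 32 from the highest among all 5383 measured ORFs. As a log10 ratio the cbf1 value is 2.13-fold, as log2 1.26-fold. ARO4 was at 0.048, -0.006 and -0.124 on met28, met31 and cbf1 and listed at 0 on met32. The difference of ARO3 minus ARO4 was -0.107 on met28, 0.09 on met31 and 0.453 on cbf1. In robust SDs of the array their sizes were 1.37, 1.73 and 4.13, so the cbf1 difference was much the largest. As with LYS20 and LYS21, probes cannot be assumed to tell the genes apart.

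ARO80 encodes the activator of the aromatic breakdown genes ARO9 and ARO10. It was at 0.249 on met28, -0.019 on met31, 0.012 on met32 and -0.299 on cbf1. Its met28 value, at percentile 97.1, was just below the bound of the highest 2.5%, and its cbf1 value, at percentile 2.27, was in the lowest 2.5%. ARO9, the breakdown aminotransferase gene, was at 0.208 on met28 (percentile 96), listed at 0 on met31 and cbf1 and at -0.041 on met32. On met28 the activator gene and this target gene were both high but outside the tail, and ARO8, the aminotransferase gene of synthesis, was at -0.002. A link between these values was not tested. ARO10, the decarboxylase gene, was listed at 0 on met28 and cbf1 and at 0.016 and 0.054 on met31 and met32, so on cbf1 neither target of Aro80 had a value.

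After the first step, the aromatic synthesis genes ARO1, ARO2 and ARO7 varied less than ARO3. ARO1, which encodes the pentafunctional enzyme of the middle steps, was at 0.105, 0.021, -0.01 and 0.002, the highest of ARO1, ARO2 and ARO7 on met28. ARO2 (chorismate synthase) lay between -0.055 and -0.004 on the 4 arrays. ARO7 (chorismate mutase, the branch to tyrosine and phenylalanine) was at -0.089, 0.043, -0.008 and -0.094. ARO8 ranged from -0.002 to 0.042 and ARO5 from -0.039 to 0.073.

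**Figure D3:**
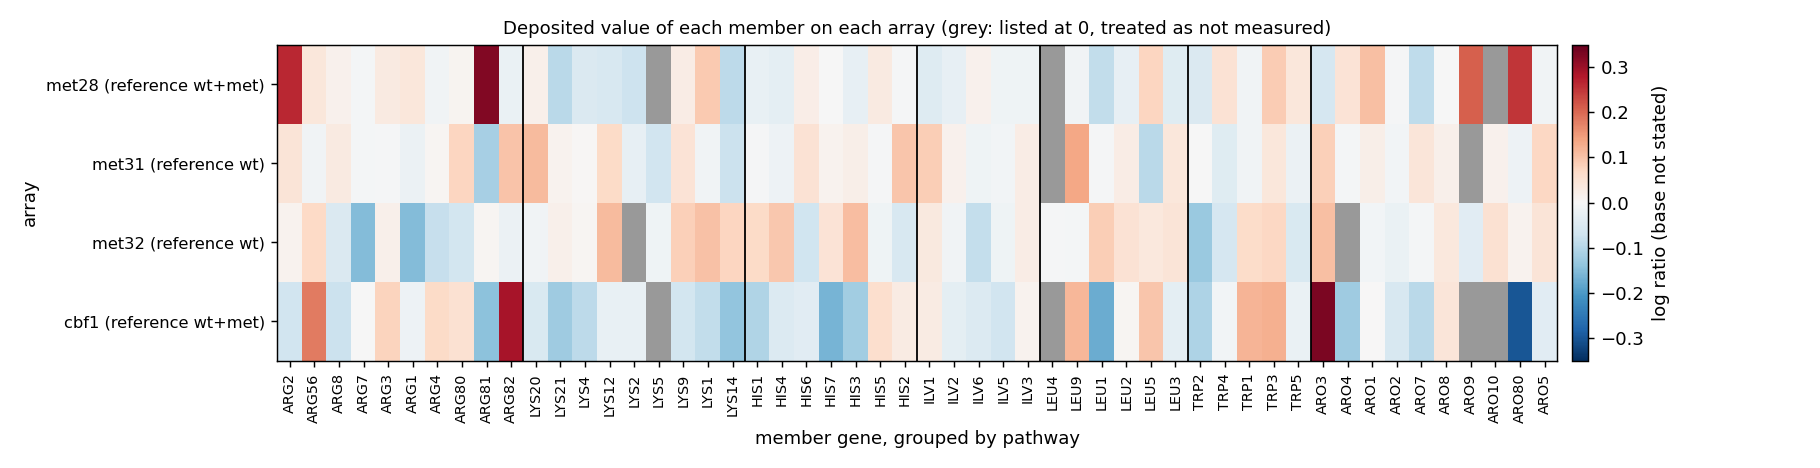
Deposited log ratio (colour, base not stated) of the 52 members (horizontal axis, grouped by pathway and set roughly in step order with regulators after the enzymes) on the 4 arrays (vertical axis). Grey cells are listed at 0. The strongest colours are single genes (ARG2, ARG81, ARO9 and ARO80 on met28, ARG56, ARG82, ARO3 and ARO80 on cbf1) and not whole pathways.

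The met28 and cbf1 arrays carry the same reference label, so their values were subtracted gene by gene over 5032 ORFs measured on both. Whether the reference RNA was the same is not stated. The 48 members had a median difference (met28 minus cbf1) of 0.029, against 0.038 for all ORFs. Of them, 4 were in the highest or lowest 2.5% of differences, against 5.07% of all ORFs. They were ARO80 (0.548) and ARG81 (0.468) on the high side and ARO3 (-0.388) and ARG82 (-0.311) on the low side, the genes already in a tail of 1 of these arrays. ARG2, at 0.333, was the next member on the high side and lay outside the bound of 0.369. The other members on the low side reached -0.143 (ARG56). The sign differed between the 2 strains in each of these 4 genes, which were picked for large differences. On met28, however, ARG82 (-0.023) and ARO3 (-0.059) lay within 1 robust SD (0.0778) of 0. The contrast has no replicate.

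**Figure D4:**
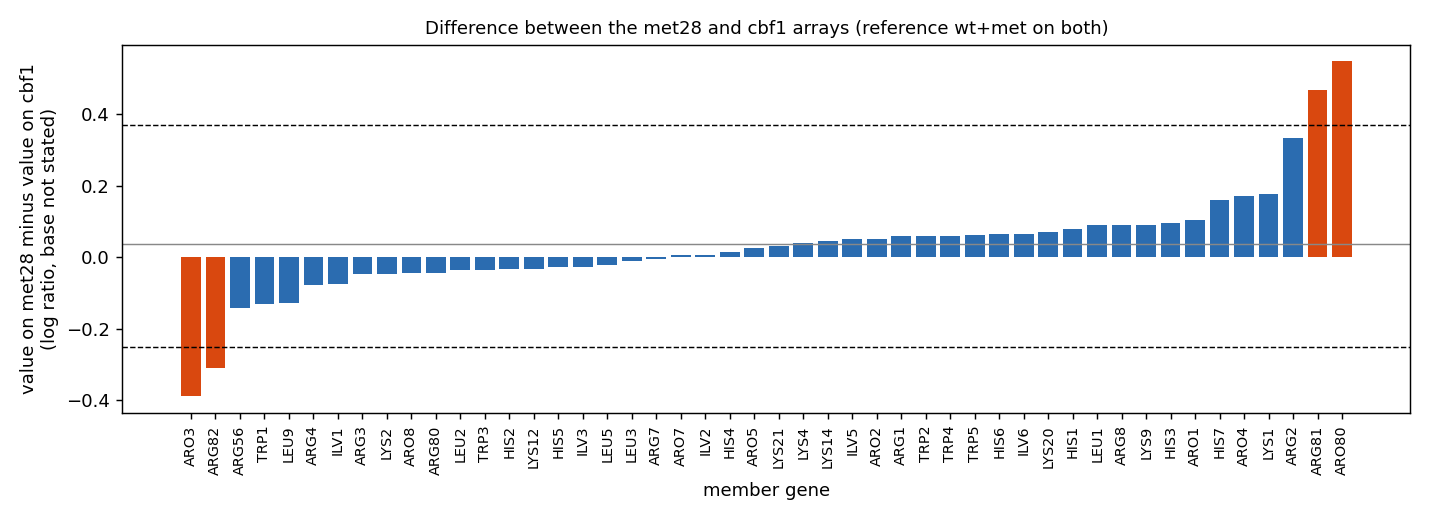
Value on met28 minus value on cbf1 (vertical axis, log ratio, base not stated) for the 48 members measured on both, sorted along the horizontal axis. Dashed lines bound the highest and lowest 2.5% of all 5032 ORFs, the grey line is their median (0.038), and orange bars are members beyond the bounds. ARO3 and ARG82 lie below the lower bound, and ARG81 and ARO80 above the upper.

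For met31 and met32, which share the label wt, 48 members were measured on both arrays and 0 were in the highest or lowest 2.5% of differences, against 5.08% of 5528 ORFs. The differences (met31 minus met32) ran from -0.148 (LYS14) to 0.153 (HIS2), with a median of -0.001. The unsettled direction of met32 applies to these values, and with its sign turned the count was 0 as well.

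Over the 46 members measured on all 4 arrays, the range from lowest to highest value had a median of 0.14, against 0.154 over 4661 ORFs. The widest ranges belonged to ARO80 (0.548), ARG81 (0.468), ARO3 (0.388) and ARG2 (0.333), at percentiles 98.8, 97.5, 95 and 91.5 of those ORFs, and the narrowest range was 0.042. The ranges mix arrays with different spread and reference, and they depend on the direction of met32. With its sign turned the median range was 0.1315 for the members and 0.16 for all ORFs, ARO3 reached 0.435, and ARO80, ARG81 and ARG2 kept their ranges.

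A list of 15 further genes of the same pathways, outside the name rule, had 2 of 57 measured values in a tail (3.51%, against 5.06% of all values). CAR2, which encodes ornithine aminotransferase of arginine breakdown, was at -0.373 on cbf1, in its lowest 2.5%, and at -0.025, -0.057 and -0.048 on met28, met31 and met32. OAC1, a mitochondrial carrier gene and a target of Leu3, was at -0.462 on met32, with rank 10 from the lowest on that array as deposited (0.462, on the high side, with the sign turned), and at -0.115, -0.015 and -0.208 on met28, met31 and cbf1. CAR1, the arginase gene of the step before CAR2, was between -0.058 and 0.04 on the 4 arrays.

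The list's medians were -0.0335, 0.0065, 0.006 and -0.0915 over 14, 14, 15 and 14 measured genes. GCN4 itself was between -0.047 and 0.005, and its activity is known to be controlled mainly through translation. ORT1, the mitochondrial ornithine exporter gene, was at 0.149 on met28, the highest of the list there but outside the tail. BAT2, a branched-chain aminotransferase gene, was listed at 0 on met28, met31 and cbf1, and its mitochondrial counterpart BAT1 was between -0.091 and -0.02. TYR1 and PHA2, genes of late steps toward tyrosine and phenylalanine, were at -0.098 and -0.116 on cbf1, both outside the tail.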

How the data were processed

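Per the labels, total RNA was extracted with hot phenol and labelled with Cy3 or Cy5 by direct incorporation into first-strand cDNA. The deposited score of each ORF and strain was taken to be a log ratio of the 2 channels. Its base, centring, background correction, dye-swap treatment and averaging are not given in the labels, and channel intensities were not analysed here, so only the number of arrays describes precision. Between arrays Pearson's r over ORFs was -0.129 to 0.183.

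An exact 0 was listed 1018, 367, 378 and 877 times on met28, met31, met32 and cbf1, against a mean of 27.8, 51, 43.9 and 19.4 for each value up to 0.006 away, and was treated as not measured. Of chromosome II, 213 of 422 ORFs were at 0 on met32, among them LYS2 and ARO4. Symbols came from the RefSeq R64 gene table (5774 of 6260 ORFs), used for names and gene order only.

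Members and lists were chosen with earlier results of these data known. All members may be named. Full values are given for tail members and markers, and values or ranges for group extremes, isozyme pairs and regulators. The promoter motifs planned were not searched, and 1 further gene is not reported here. Python 3.11.15, pandas 2.3.3, numpy 2.4.6 and matplotlib 3.10.9 were used.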

Additional observations from a re-analysis of the deposited data

How the results depend on the processing

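With 1 column per strain no test was made, and the number of arrays limits the precision. No paired analysis was possible because each strain has 1 column. Counts of members in the tails depended on the threshold. Measured members numbered 49 on met28, 50 on met31, 50 on met32 and 48 on cbf1. The share of all ORFs per side is set by the threshold itself, close to 1%, 5% or 10%, and close to 2.5% where none is named. With 1% per side met28 held 0 high members and cbf1 0 low ones. With 5% the counts were 4 high and 0 low on met28, 1 high and 1 low on met31, 0 high and 3 low on met32 and 3 high and 1 low on cbf1. With 10% they were 4 high and 0 low on met28, 6 high and 3 low on met31, 7 high and 3 low on met32 and 6 high and 1 low on cbf1. A fixed 1.5-fold bound gave, if the values are log10 ratios, 4 high and 0 low on met28 (5.55% and 3.36% of all ORFs), 3 high and 1 low on cbf1 (4.05% and 10.7%) and 0 on met31 and met32. If they are log2 ratios it gave 0 high and 0 low on all 4 arrays, with at most 0.534% of all ORFs beyond it on either side. Counting zeros as values gave 3 of 52 members high on met28. Over ORFs measured on all 4 arrays, 46 of them members, there were 3 high on met28 and 1 high and 1 low on met31. Among synthesis enzymes only, met28 had 0 high, and cbf1 1 high and 0 low. Turning the met32 sign gave pathway medians there of 0.035 (ARG), -0.049 (HIS), -0.0415 (LEU), -0.046 (LYS) and 0.052 (TRP), and isozyme differences of -0.077 (ARO8 minus ARO9) and 0.031 (LYS20 minus LYS21). With arrays set to a common robust SD, ARO3 minus ARO4 was 0.3099 on cbf1. After median centring 24 of 48 members were above and 24 below 0 on cbf1. Medians otherwise moved by less than 1 robust SD of their array under means, centring, zeros as values, ORFs measured on all 4 arrays, enzymes only and the omission of HIS3, LEU2, TRP1 and LYS2. That tolerance is wide next to medians this small.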

Other observations

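Some members lie close together on a chromosome. HIS7 and ARO4 are direct neighbours, and on cbf1 they were at -0.163 and -0.124, while on met28 they were at -0.002 and 0.048. LYS14 and ARO3 have 4 genes between them and differed on cbf1, at -0.137 and 0.329. No member is close to a deleted gene: the nearest are LYS4, with 17 genes between it and MET32, and LYS1, with 18 genes between it and MET28. LYS4 was at 0.007 on met32 and LYS1 at 0.092 on met28.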
